A study of Mus musculus with 6 samples.

Results

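The miR-221 and miR-222 cluster is a pair of microRNA (miRNA) hairpins on the mouse X chromosome, and its products were taken from the sequencing tables by name as the mouse (mmu) references mmu-miR-221-3p, mmu-miR-221-5p, mmu-miR-222-3p and mmu-miR-222-5p. All 4 were found in every one of the 6 libraries as entries of their own, out of 911 mature miRNA references in all, and none was part of a joint entry of near-identical miRNAs. The cells were bone-marrow-derived macrophages, grown from the marrow of male mice aged 6 to 12 weeks with M-CSF, the growth factor of the macrophage lineage, at 25 ng/mL every 2 days for 6 days in medium with 10% fetal bovine serum. The study compared 3 libraries from ApoE-knockout mice (EKO), which lack the lipid-transport protein apolipoprotein E, with 3 from wild-type mice (WT), stated to be biological replicates. Both groups had the same M-CSF culture and no other treatment, and the labels name no strain, pool or litter.

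A miRNA hairpin yields a 5′ arm (5p) and a 3′ arm (3p), of which usually 1, the guide, is retained in Argonaute and pairs with target transcripts mainly through its seed, bases 2 to 8. The 3p arms are the known guides of miR-221 and miR-222. They restrain the transcripts of the stem cell factor receptor Kit and of the cell cycle inhibitor p27 (Cdkn1b), and are known for roles in blood progenitors, endothelium and smooth muscle. In macrophages, miR-222 is known to increase during endotoxin tolerance and to target Brg1, a chromatin remodeller.

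RefSeq (GRCm38.p6) held the mature sequences of 3 of the 4 members, with the seed in capitals below. They are shown because the 3p arms, which carry one seed, differed in how their levels compared between the genotypes.
miR-221-3p: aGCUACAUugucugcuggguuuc
miR-222-3p: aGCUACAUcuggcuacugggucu
miR-221-5p: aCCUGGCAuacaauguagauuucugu
The 3p arms begin with the same 8 bases, and 11 of their 23 bases are identical position by position. The 5p arm of miR-221 has another seed. The 1 other mouse miRNA in the table with the seed of the 3p arms, miR-1928, had no read in any library.

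Both hairpins lie on the minus strand of chromosome X, Mir221 at chrX:19146294-19146388 and Mir222 at chrX:19146893-19146971 (GRCm38.p6), with 504 bases between them. GENCODE M21 places no other gene over the span, and the nearest annotated gene, the noncoding Gm14636 on the same strand, lies 10010 bases away. These coordinates describe the reference only, since the submitters' processing notes name the older build mm9 and the tables carry no positions. The hairpins follow, with the mature sequences above in capitals, to show how the arms of miR-221 face each other.
Mir221: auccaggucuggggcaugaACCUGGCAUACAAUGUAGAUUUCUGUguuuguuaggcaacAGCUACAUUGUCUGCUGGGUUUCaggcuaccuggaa
Mir222: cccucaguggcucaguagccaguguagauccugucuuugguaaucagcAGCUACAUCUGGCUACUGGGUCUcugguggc

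The libraries held 34651511 to 41331604 reads on mature miRNAs. EKO libraries had fewer miRNAs with a read (543 to 591, against 668 to 698 in WT) and fewer distinct read sequences (48275 to 57650, against 62572 to 67508). Apoe mRNA is not measured by these tables, so the genotype labels could not be checked. Of 8 myeloid and macrophage miRNAs listed as markers, all 8 had reads. Their summed level was 143031 to 171234 CPM (counts per 1000000 reads on mature miRNAs) in EKO and 215757 to 228584 in WT, most of it miR-21a-5p. The macrophage miR-511, from an intron of the mannose receptor gene, was scarce. Its 5p arm averaged 0.723 CPM (EKO) and 5.72 CPM (WT), its 3p arm 0.220 and 0.764 CPM. Unlike the sums, these miR-511 values are CPM scaled by TMM, edgeR's correction for library composition.

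The guide arm miR-221-3p stood lower in all 3 libraries of ApoE-knockout macrophages, with a mean 2.21-fold higher in wild type, while the other 3 arms differed by little between the genotypes. The levels below are likewise CPM scaled by TMM. Levels of miR-221-3p were 2193, 2758 and 3890.5 CPM in EKO replicates 1, 2 and 3 and 6007, 5179.6 and 8308 CPM in WT. Every EKO library lay below every WT library, and replicate 3 was the highest of its genotype in both. The mean was 2947 ± 865 CPM (EKO) and 6498 ± 1621 CPM (WT, SD, n = 3 each). The log2 fold change was -1.14 ± 0.24 (SE, 95% confidence interval -1.70 to -0.58). In such bulk cultures, fewer cells of a type and less RNA per cell cannot be told apart.

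That difference did not pass the test over all 575 miRNAs (adjusted p = 0.0766, edgeR quasi-likelihood test with Benjamini-Hochberg adjustment). No miRNA did, so 0% were called, and the unadjusted p of miR-221-3p, 0.00153, was the 6th smallest. Unadjusted p-values under 0.05 were found for 13.0% of miRNAs with a lower and 8.35% with a higher level in EKO. For 18.8% of miRNAs the highest EKO library was below the lowest WT library, and the genotypes did not overlap, in either direction, for 31.3%. Over all 575 the median of the log2 fold changes was -0.16. Among the 57 miRNAs averaging at least 1000 CPM, a bound chosen after the values were seen, miR-221-3p had the lowest log2 fold change, followed by miR-26b-5p at -0.95. Lower values were found below that bound, such as -1.51 for miR-125a-5p, which averaged 233 CPM. Under 15 other ways of processing the counts, leaving out each library among them, the log2 fold change of miR-221-3p stayed between -1.39 and -0.91. It passed under 6 of these 15, and the adjusted p spanned 0.00053 to 0.285, the highest without WT replicate 3. It passed with DESeq2 (adjusted p = 0.00053, where 7.30% were called lower), with limma-voom (0.041, 5.57% called in either direction) and with edgeR restricted to miRNAs averaging at least 10 CPM (0.0231, 12.7% lower).

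The guide arm miR-222-3p, with the same seed, was the most abundant member and stood at the same level in both genotypes within the spread of the libraries. Its levels were 39989.9, 34680.2 and 36737 CPM in EKO and 36831, 35911 and 36814 CPM in WT. The 3 WT values lay inside the range of the EKO values. The means were 37136 ± 2677 and 36519 ± 527 CPM (SD, n = 3 each), with a log2 fold change of 0.02 ± 0.09 (SE, 95% confidence interval -0.19 to 0.24, adjusted p = 0.961, edgeR). By reads it ranked 5th to 7th among all mature miRNAs in each library, whereas miR-221-3p ranked 26th to 39th in EKO and 17th to 21st in WT.

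**Figure D1:**
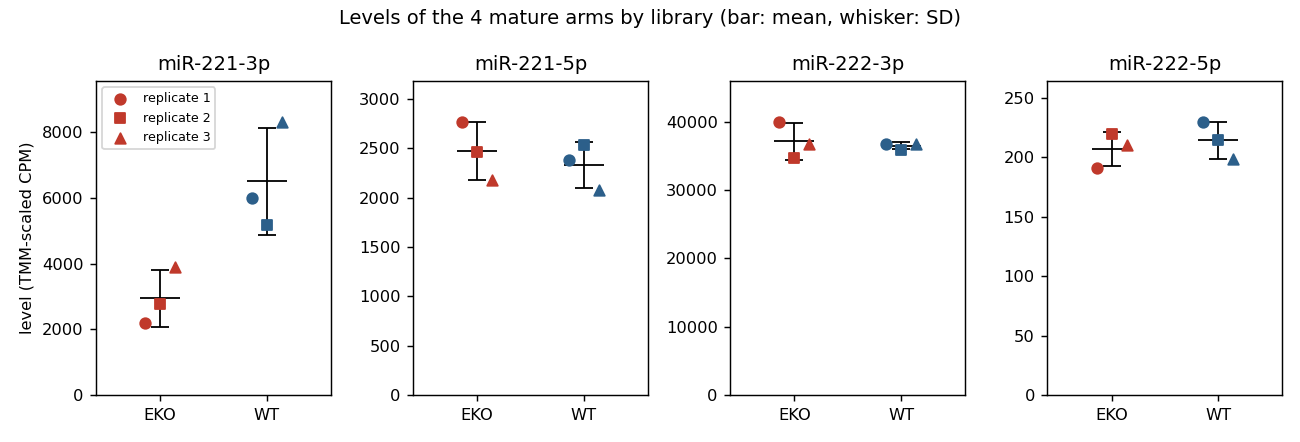
Level of each mature arm (TMM-scaled CPM, vertical axes from 0 and different for each arm) in the 3 EKO and 3 WT libraries, with the mean as a bar and the SD as whiskers. The EKO libraries lie at 2193 to 3890.5 CPM and the WT libraries at 5179.6 to 8308 CPM for miR-221-3p, and the genotypes overlap for the other 3 arms.

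The 5p arms, the usual passenger strands, overlapped between the genotypes. Levels of miR-221-5p were 2768, 2465 and 2183 CPM in EKO and 2385, 2538 and 2074 CPM in WT. Replicate 3 was the lowest of its genotype in both, where miR-221-3p of the same hairpin was the highest. The log2 fold change was 0.08 ± 0.13 (SE, 95% confidence interval -0.21 to 0.38, adjusted p = 0.838, edgeR). An offset for each library's trend with GC content, chosen after seeing the data and fitted above a mean of 10 CPM, moved it to 0.42 (adjusted p = 0.0995, edgeR). With the same offset miR-221-3p had a log2 fold change of -1.06 (adjusted p = 0.0134, edgeR).

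Least abundant was miR-222-5p, at 191, 219 and 210.1 CPM in EKO and 229.8, 214 and 199 CPM in WT. The values of the genotypes were interleaved. The log2 fold change was -0.05 ± 0.14 (SE, 95% confidence interval -0.37 to 0.26, adjusted p = 0.930, edgeR).

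**Figure D2:**
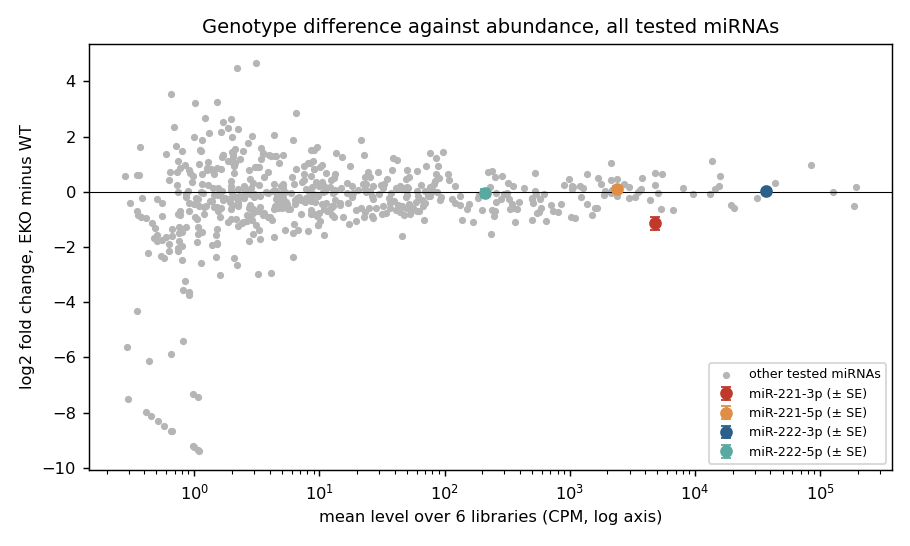
Log2 fold change (EKO minus WT) of the 575 tested miRNAs against mean level (CPM, log axis), with the 4 arms in colour and their SE as whiskers. Among miRNAs averaging at least 1000 CPM, a bound chosen after the values were seen, miR-221-3p has the lowest log2 fold change, at -1.14. Lower values lie below that bound, and the other 3 arms lie between -0.05 and 0.08.

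The arms of each hairpin were set against each other within a library, a comparison that library scaling cannot move. For miR-221, the number of 3p reads per 5p read was 0.792, 1.12 and 1.78 in EKO replicates 1, 2 and 3 and 2.52, 2.04 and 4.01 in WT. The 5p arm thus had more reads than the 3p arm in EKO replicate 1 only, and the ratio was lower in every EKO library than in every WT library. In percent, the 3p arm made up 53.7% ± 9.96 of the hairpin's reads (EKO) and 72.9% ± 6.55 (WT, SD, n = 3 each). The log2 ratio differed by -1.23 ± 0.43 (SE, 95% confidence interval -2.34 to -0.13). This did not pass over the 98 hairpins with both arms averaging at least 1 CPM (adjusted p = 0.178, limma with Benjamini-Hochberg adjustment), of which 0% were called (smallest adjusted p = 0.146). The unadjusted p was 0.0346, one of 21 under 0.05, and the two-sided exact permutation p was 0.1, the smallest that 3 against 3 allows. A ratio lower in all EKO than in all WT libraries was found for 14.3% of hairpins, and one that did not overlap in either direction for 30.6%. Restricted to the 21 hairpins with both arms averaging at least 50 CPM, the difference of miR-221 passed (adjusted p = 0.0321, limma), as 1 of 10 called.

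The arms of miR-222 were far more unequal and kept their proportion. There were 209, 158 and 175 reads of the 3p arm per 5p read in EKO and 160.3, 168 and 185 in WT, with interleaved values. The 3p arm made up 99.4% ± 0.0769 of the hairpin's reads in EKO and 99.4% ± 0.0420 in WT. The log2 ratio differed by 0.07 ± 0.21 (SE, 95% confidence interval -0.47 to 0.62, adjusted p = 0.801, limma). Of the 98 hairpins, 90 had a lower mean log2 ratio of 3p to 5p in WT than miR-222, and 63 a lower one than miR-221.

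The guide arms of the neighbouring hairpins were compared in the same way. In EKO there were 18.2, 12.6 and 9.44 reads of miR-222-3p for each read of miR-221-3p, and in WT 6.13, 6.93 and 4.43. The genotypes did not overlap, and the log2 ratio of miR-221-3p to miR-222-3p was -3.69 ± 0.48 (EKO) and -2.52 ± 0.33 (WT, SD, n = 3 each). The difference of -1.17 had a two-sided exact permutation p of 0.1, the smallest that the design allows. As miR-222-3p had a log2 fold change of 0.02, this ratio largely restates the -1.14 of miR-221-3p. For comparison, the levels of 18.8% of all 575 miRNAs lay lower in every EKO than in every WT library. The 5p arms showed no such separation, with log2 ratios of miR-221-5p to miR-222-5p of 3.86, 3.49 and 3.38 in EKO and 3.38, 3.57 and 3.38 in WT. Different arms are not captured equally in library preparation, so these ratios are of reads and not of molecules.

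**Figure D3:**
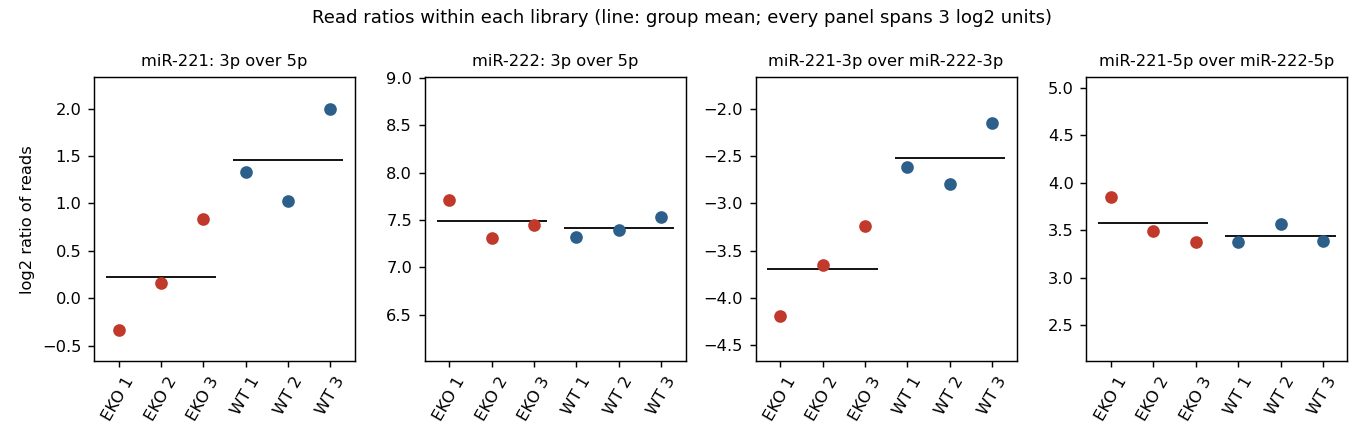
Log2 ratios of reads within each library, for the arms of each hairpin and for the same arm of both hairpins, with a line at each group's mean and 3 log2 units on every vertical axis. The ratios that hold miR-221-3p are lower in all 3 EKO libraries, by 1.23 and 1.17 on average, and the other ratios overlap between EKO and WT.

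Read as a sum over the shared seed, the 3p arms came to 42183, 37438 and 40627 CPM in EKO and 42839, 41090.4 and 45122 CPM in WT, and the genotypes overlapped. The share of miR-221-3p in that sum was 5.20%, 7.37% and 9.58% in EKO and 14.0%, 12.6% and 18.4% in WT. Between 81.6% and 94.8% of the reads with this seed were thus miR-222-3p. All 4 arms together took 4.06% to 4.40% of mature miRNA reads in EKO and 4.27% to 4.97% in WT.

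The tables also count distinct read sequences, which include end variants and sequencing errors of a miRNA. The arm miR-222-3p had more of them than any other mature miRNA in every library, 2162 to 2422 in EKO and 2536 to 2727 in WT, although 4 to 6 miRNAs had more reads. Counts for miR-221-3p were 540, 617 and 760 in EKO and 941, 909 and 1213 in WT. The number of reads per distinct sequence of miR-221-3p was 132, 179 and 194 in EKO and 248, 229 and 294 in WT. For miR-222-3p it was 600.3, 588 and 576 in EKO and 563, 562 and 579 in WT, a narrow range.

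Across the 6 libraries, the profile of miR-221-3p was set beside those of the 247 other miRNAs averaging at least 10 CPM, each as log2 CPM centred on its own mean. The measure was the root-mean-square (RMS) difference, with a median of 0.66 over the 247. The nearest were miR-17-5p (RMS 0.053) and miR-20a-5p (0.14), both from the miR-17-92 polycistron, and miR-23a-3p (0.063), from the miR-23a, miR-27a and miR-24 cluster. By library, miR-23a-3p stood at 309, 404 and 536 CPM in EKO and 814, 695 and 1058 CPM in WT, the same order of the 6 libraries as miR-221-3p. Its log2 fold change was -1.04 ± 0.23, and that of miR-17-5p -1.09 ± 0.26 (SE, adjusted p = 0.0766 for each, edgeR). Both were picked for likeness to miR-221-3p over the same 6 libraries, so similar fold changes follow from the selection. None of the cluster's own arms was as near to miR-221-3p as these profiles, picked as the nearest of 247. Their RMS differences were 0.68 for miR-222-3p, 0.76 for miR-221-5p and 0.64 for miR-222-5p, around the median of 0.66. Nearest to miR-222-3p were miR-378c (RMS 0.064), miR-101b-3p (0.071) and let-7c-5p (0.073), against a median of 0.35. Its distances to miR-221-5p and miR-222-5p were 0.13 and 0.14.

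**Figure D4:**
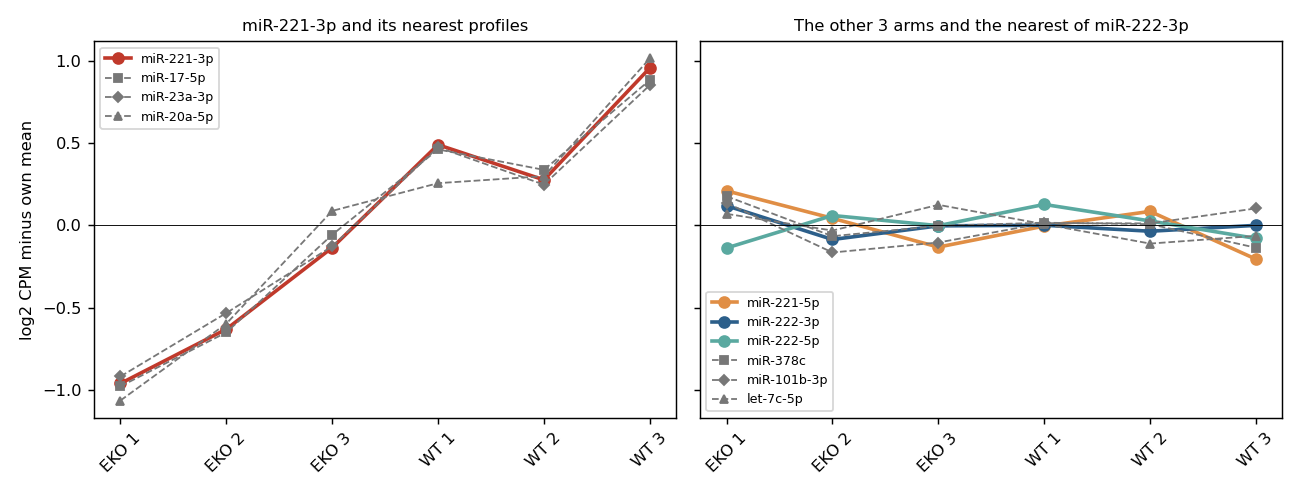
Log2 CPM of each miRNA minus its own mean over the 6 libraries (vertical axis), by library. The left panel shows miR-221-3p with its 3 nearest profiles, at RMS differences of 0.053 to 0.14, and the right panel the other 3 arms with the 3 profiles nearest to miR-222-3p.

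A property of the libraries moved with miR-221-3p. The number of distinct read sequences on all mature miRNAs was 48275, 54098 and 57650 in EKO replicates 1, 2 and 3 and 62650, 62572 and 67508 in WT, so ordering the libraries by it gives the order of miR-221-3p levels, with WT replicates 1 and 2 nearly tied. The same ascending order was held by 14 of the 247 other miRNAs (5.67%), and 16 (6.48%) held the exact reverse, among them the abundant miR-148a-3p. The part of this library property in the level of miR-221-3p was not tested, and the property and the genotype cannot be told apart in these 6 libraries. The other 3 arms of the cluster did not follow it.

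**Figure D5:**
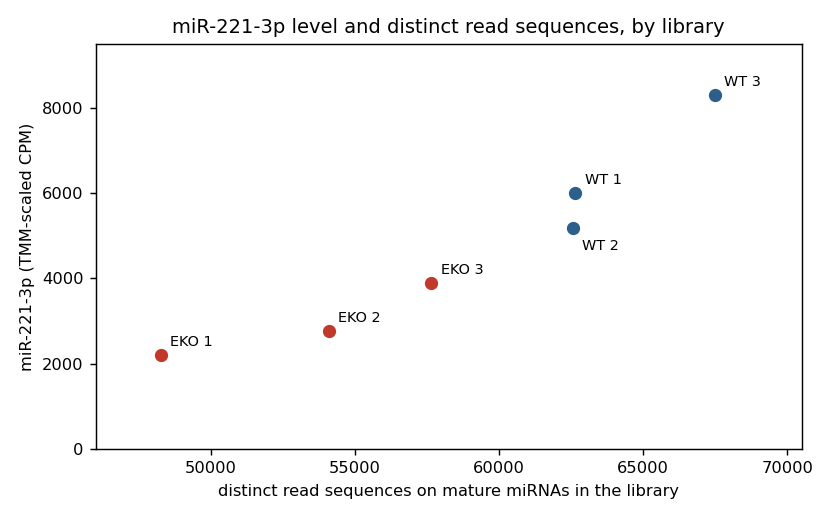
Level of miR-221-3p (TMM-scaled CPM, vertical axis from 0) against the number of distinct read sequences on mature miRNAs (horizontal axis, not from 0) in each library. The libraries run in 1 order on both axes, from EKO replicate 1 (48275 sequences, 2193 CPM) to WT replicate 3 (67508 sequences, 8308 CPM).

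Other miRNAs known to restrain Kit or the Cip/Kip cell cycle inhibitors formed a list of 15, of which 12 could be tested. None passed in either direction (0% of all miRNAs did), and the median log2 fold change was -0.46 against -0.16 for all. At an unadjusted p under 0.05, 6 of the 12 were lower and 1 was higher in EKO, against 13.0% lower and 8.35% higher among all 575. These shares are not like for like, since most of the 12 averaged at least 10 CPM. Restricted to that mean, 94 of 251 miRNAs had such a p in either direction, against 123 of all 575 (edgeR). Among the 6 lower were miR-17-5p and miR-20a-5p, which share a polycistron and were picked above for likeness to miR-221-3p. Also among the 6 was miR-196a-5p, near the floor at no more than 0.026 CPM in any EKO library. The 6 are thus not separate observations, and the list was chosen with earlier results of these data known. Higher was miR-148a-3p, which targets the p27 transcript, with means of 113737 ± 31221 CPM (EKO) and 57549 ± 12379 CPM (WT, SD, n = 3 each). The p21-directed miR-93-5p stood at 406 ± 53.4 and 683 ± 122 CPM, and miR-34a-5p, a p53 target, at 18.3 ± 1.06 and 35.4 ± 10.8 CPM.

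Of 16 miRNAs of the Toll-like receptor response and endotoxin tolerance, 15 could be tested and none passed (0% of all miRNAs did), and the median log2 fold change was -0.51, where that of all 575 was -0.16. At an unadjusted p under 0.05, 5 of the 15 were lower and 1 higher (13.0% and 8.35% of all miRNAs). Most of the 15 also averaged at least 10 CPM, where 94 of 251 miRNAs had such a p in either direction (edgeR). The lowest p-values belonged to miR-21a-5p, the most abundant of them (log2 fold change -0.50 ± 0.09, SE), miR-125a-5p (-1.51 ± 0.32), let-7e-5p (-0.69 ± 0.15) and miR-125b-5p, which targets TNF mRNA (-0.65 ± 0.14). Their adjusted p was 0.0766 for all 4 (edgeR). The 1 higher member was miR-147-3p (0.74 ± 0.22, SE, adjusted p = 0.104, edgeR). The abundant miR-146a-5p (0.07 ± 0.15) and miR-146b-5p (-0.03 ± 0.11) differed by little.

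Other miRNAs of the X chromosome gave 38 tested references, and none passed (0% of all miRNAs did). Lower values in EKO were found for 29 of the 38 (76.3%), as for 335 of all 575 (58.3%), and the median log2 fold change was -0.53 beside -0.16 for all. At an unadjusted p under 0.05, 7 (18.4%) were lower and 1 (2.63%) higher, where all miRNAs gave 13.0% and 8.35%. The higher one was miR-223-5p, at 2789 ± 104 CPM in EKO and 2024 ± 141 in WT, whose opposite arm miR-223-3p stood at 259 ± 16.2 and 399 ± 84.2 CPM (SD, n = 3 each). As for miR-221, the 3p arm was thus lower and the 5p arm not, but the arms of miR-223 lay on opposite sides. From the Ftx locus, miR-374b-5p counted jointly with its near-identical miR-374c-5p stood at 107 ± 15.2 and 227 ± 50.8 CPM.

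Cells other than macrophages could contribute these miRNAs, since miR-221 and miR-222 are also abundant in endothelium, stroma and progenitors. Of 2 endothelial markers both had reads, with a summed level of 64.6 to 73.1 CPM in EKO and 76.3 to 79.9 in WT. The 6 stromal and smooth muscle markers summed to 77.5 to 118 CPM in EKO and 183 to 225 in WT. Most of it was miR-143-3p, at 90.4 ± 28.1 and 186 ± 29.6 CPM (SD, n = 3 each, TMM-scaled). Of the 4 stromal markers that could be tested, 3 had lower values in EKO. The other, miR-214-3p, had a higher value, near the floor at no more than 2.68 CPM in any library. The 5 progenitor markers summed to 30198 to 32280.2 CPM in EKO and 24961 to 27309 in WT, mainly miR-10a-5p and miR-99a-5p. Of these 5, only miR-10a-5p had a higher value in EKO (log2 fold change 0.59 ± 0.17, SE). The other 4 had lower values: miR-99a-5p -0.07 and miR-125b-5p -0.65 on the log2 scale, and miR-196a-5p and miR-196b-5p at no more than 0.685 CPM in any EKO library and at least 1.29 CPM in every WT library. Such miR-196 levels are near the floor, where EKO libraries had fewer miRNAs with a read in general. Of 5 erythroid markers 3 had reads and the arms of miR-144 had none in any library, with sums of 117 to 145 CPM in EKO and 127 to 159.8 in WT, nearly all of it the joint entry of miR-486a-5p and miR-486b-5p. The red-cell miRNA miR-451a stood at 6.32, 5.25 and 1.26 CPM in EKO and 0, 0 and 0.560 CPM in WT. It was higher in every EKO library than in every WT library (adjusted p = 0.260, edgeR), as were 12.5% of all 575 miRNAs. These miR-451a levels are near the floor. The 3 lymphoid markers summed to 489 to 592 CPM in EKO and 684 to 801 in WT, and the 6 epithelial markers to 111 to 180.5 and 144 to 158 CPM. Nearly all of the lymphoid sum was miR-181a-5p and miR-181b-5p, and miR-150-5p averaged only 3.63 CPM (EKO) and 5.17 CPM (WT). The endothelial, stromal, lymphoid and myeloid sums were lower in every EKO library than in every WT library. Taken singly, 18.8% of all 575 miRNAs were so, miR-221-3p among them. The endothelial sum was mostly miR-126a-3p, whose log2 fold change of -0.16 was the median of all 575. The myeloid sum was mostly miR-21a-5p. Of the 8 myeloid markers 6 had lower values in EKO, while miR-223-5p (0.46) and miR-146a-5p (0.07) had higher ones. The progenitor sum was higher through miR-10a-5p. The part of these cell types in the level of miR-221-3p was not tested.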

How the data were processed

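Each of the 6 libraries had 1 table of reads on mature miRNA and stem-loop references. Per the file headers, the authors deposited a total read count, an estimated count that splits each multi-mapping read between its references, a count of distinct read sequences and a molecular-barcode count, which is 0 throughout, so PCR copies were not removed and values carry more than counting error. The submitters' processing notes name mm9 as the build. Which programs aligned and counted the reads is not given in the sources used here. RNA was purified on RNeasy columns, per the labels, which can lose small RNA.

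Names before the first colon were matched, 73 stem-loop references left out, missing references set to 0 and estimated counts rounded. edgeR 4.0.16 (R 4.3.3) used TMM, filterByExpr and the quasi-likelihood test on genotype over all miRNAs, with adjusted p under 0.05 as the threshold. Standard errors are the absolute log2 fold change divided by the square root of F. Arm ratios used log2 of reads plus 0.5 and limma 3.58.1. Marker sums are plain CPM. Replicates within each genotype differed well beyond sampling noise (chi-square per degree of freedom 257 to 1925). Of the 76 listed X-linked miRNAs, 69 were in the RefSeq table, all on chromosome X only.

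On simulated counts for this comparison (519 and 517 miRNAs), edgeR found 19.6% of the 179 that were given 2-fold changes and 51.7% of the 178 given 4-fold changes. On 92 hairpins the limma fit recovered 0% of 51 whose arms differed by a 2-fold change or a combination of such changes. On 93 hairpins it recovered 51.9% of 52 with 4-fold changes. The changed miRNAs were drawn at random from filtered miRNAs of all levels, and the arms of a hairpin were drawn separately.

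The members and lists were chosen with earlier results of these data known. Named are the 4 members, the 3 nearest profiles of each 3p arm and miRNAs sharing a member's seed. From each list, at most 4 with the lowest p-values above a mean of 10 CPM are named. Up to 3 abundant markers are named per cell type. Picked with their values in view were miR-26b-5p, miR-511, miR-144, miR-146b-5p, miR-147-3p, miR-196a-5p, miR-196b-5p and miR-214-3p. The other settings tried were DESeq2 1.42.0, limma-voom, 3 other scalings, 3 other count filters, the total read counts, the replicate number as a block, and omission of each library. For arm ratios they were a pseudocount of 5 reads, stricter filters, an exact test, the total read counts, the block and leaving out each library.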

Additional observations from a re-analysis of the deposited data

How the results depend on the processing

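The direction of miR-221-3p, of the arm ratio of miR-221 and of the ratio of miR-221-3p to miR-222-3p was the same under every alternative run. The side of the threshold was not. The log2 fold change of miR-221-3p passed the threshold with DESeq2 (-1.06), limma-voom (-1.15), no filter on low counts (-1.12), a minimum of 10 reads per library (-1.09), a minimum mean of 10 CPM (-1.11), the GC offset with that last filter (-1.06) and the replicate block (-1.15). Leaving out single libraries gave -1.39 to -0.91, with a pass only without EKO replicate 3 (adjusted p = 0.0277, edgeR), and under the minimum mean of 10 CPM -1.33 to -0.87, with a pass only without EKO replicate 1 (-0.93, adjusted p = 0.0422) or EKO replicate 3 (-1.33, 0.00374). The arm ratio of miR-221 passed with both arms averaging at least 50 CPM (-1.23).

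The arms near 0 changed sign without nearing the threshold. For miR-222-3p the log2 fold change was -0.0070 with scaling by library totals only, -0.013 with GC content removed and -0.025 to 0.081 when single libraries were left out. For miR-222-5p it was 0.033 with DESeq2 and with its size factors, 0.037 with GC content removed and -0.093 to 0.0097 without single libraries. The arm ratio difference of miR-222 ranged from -0.037 to 0.16 without single libraries.

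The number of miRNAs called was 0 as reported (123 at an unadjusted p under 0.05), 100 with DESeq2, 32 with limma-voom, 52 with no filter on low counts, 43 under the minimum of 10 reads, 59 under the minimum mean of 10 CPM, 40 with the GC offset and 62 with the replicate block. It was 0 to 45 without single libraries (45 without EKO replicate 3), and 0 to 91 with the filter on mean CPM as well (91 without EKO replicate 3, 13 without EKO replicate 1). The cause was not tested. The GC offset and the omission of libraries under the minimum mean of 10 CPM were chosen after seeing the data. GC content was known for 88.0% of the miRNAs above that mean and set to the median for the rest.

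The labels tie no EKO library to a WT library beyond a number, and the departures from the genotype means of libraries sharing a number had correlations of -0.02, -0.03 and 0.05. Of the EKO libraries, only replicate 3 had its highest correlation with its own number. With the replicate block the log2 fold change of miR-221-3p was -1.15 (adjusted p = 9.83e-05, edgeR), that of miR-221-5p 0.08, of miR-222-3p 0.02 and of miR-222-5p -0.05. The arm ratio differences were -1.23 and 0.07, and the ratio of miR-221-3p to miR-222-3p differed by -1.17. With 3 libraries a genotype, differences of 2-fold were often missed on simulated counts. That share is over miRNAs of all levels, so it does not give the recovery at the level of miR-221-3p.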
